A study of Oryctolagus cuniculus with 20 samples.

Results

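ASAP3 (ENSOCUG00000000227) and TMEM67 (ENSOCUG00000010390) are 2 genes of the 23669 in the count table, and 2 of the 8683 that held enough reads to be tested. They were chosen by their higher counts in tricuspid valves of dexfenfluramine-treated rabbits than in those of non-treated rabbits, so that difference is described below by its size, and their call in it is part of the choice and no test. The question put to the data was whether the increase is larger with dexfenfluramine than with pergolide. The dexfenfluramine values took part in choosing the genes, which favours a high value in that group also when it is compared with pergolide.

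RNA was sequenced from the tricuspid valves of 20 adult female New Zealand white rabbits, 5 per group. The non-treated group drank water. The other groups were given serotonin at 80 mg/kg/day, pergolide at 0.5 mg/kg/day or dexfenfluramine at 20 mg/kg/day by mouth for 16 weeks, in drinking water. The dexfenfluramine dose is that of the sample labels and the methods, and another part of the study's text gives a lower one. Each treatment was tested at a single dose, and doses were not matched between drugs, so a difference between drugs cannot be told apart from a difference between doses. A valve is a mixture of cells, and in such bulk samples fewer cells of a type and less RNA per cell cannot be told apart.

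ASAP3 encodes an ARF GTPase-activating protein that stimulates GTP hydrolysis on ARF proteins, small GTPases that control membrane traffic and actin remodeling. It locates to focal adhesions, where integrins link the cytoskeleton to the matrix, and takes part in cell migration. TMEM67 encodes meckelin, a transmembrane protein of the transition zone, the gate at the base of the primary cilium, and its loss causes Meckel and Joubert syndromes. Primary cilia carry hedgehog and WNT signals and are needed for the development of heart valves.

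Gene counts summed to 3247091 in the smallest library and 5921025 in the largest. ASAP3 held between 33 and 146 reads per valve and TMEM67 between 23 and 139. Counting error alone gave a mean coefficient of variation of 14.1% for ASAP3 and 15.2% for TMEM67 in non-treated valves, and of 8.97% and 9.13% in dexfenfluramine valves. The variation between rabbits beyond counting was estimated by edgeR at 14.1% for ASAP3 and 21.3% for TMEM67. The single most abundant gene, which has no symbol, took 40.7% ± 7.39 (SD, n = 5) of all reads in the non-treated group and 29.1% ± 5.65 (SD, n = 5) in the dexfenfluramine group. With serotonin its share was 35.9% ± 4.07 (SD, n = 5), and with pergolide 32.9% ± 2.13 (SD, n = 5). Values are therefore in CPM (counts scaled to a common library total) after TMM scaling, a factor that sets the bulk of genes equal between valves. The TMM factors ran from 0.58 to 1.25 in non-treated valves and from 1.08 to 1.72 in dexfenfluramine valves.

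The ASAP3 level in non-treated valves was 11.9, 13.0, 15.8, 11.2 and 16.3 CPM in replicates 1 to 5. In serotonin-treated valves it was 19.8, 18.7, 24.8, 16.1 and 15.7 CPM. Serotonin replicate 3 was the highest of its group, and the serotonin and non-treated valves overlapped. In pergolide-treated valves the ASAP3 level was 17.2, 12.5, 16.4, 17.1 and 19.0 CPM, which overlapped with the non-treated range through replicate 2. In dexfenfluramine-treated valves it was 19.6, 25.0, 26.3, 25.7 and 18.6 CPM. All 5 dexfenfluramine valves lay above all 5 non-treated valves, and 4 of the 5 lay above all pergolide valves, the exception being replicate 5.

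The TMEM67 level in non-treated valves was 8.30, 11.4, 18.4, 11.8 and 11.3 CPM in replicates 1 to 5, with replicate 3 well above the rest. In serotonin-treated valves it was 13.5, 10.8, 15.2, 7.78 and 14.6 CPM, within the non-treated range except for replicate 4, which lay just under it. In pergolide-treated valves the TMEM67 level was 12.5, 15.5, 18.3, 20.05 and 16.9 CPM. All 5 lay above the other non-treated valves, and replicate 4 also above non-treated replicate 3. In dexfenfluramine-treated valves it was 27.8, 22.6, 25.0, 24.0 and 13.6 CPM. Of these 5 valves, 4 lay above every valve of the other groups, while replicate 5 lay within the non-treated, serotonin and pergolide ranges.

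**Figure D1:**
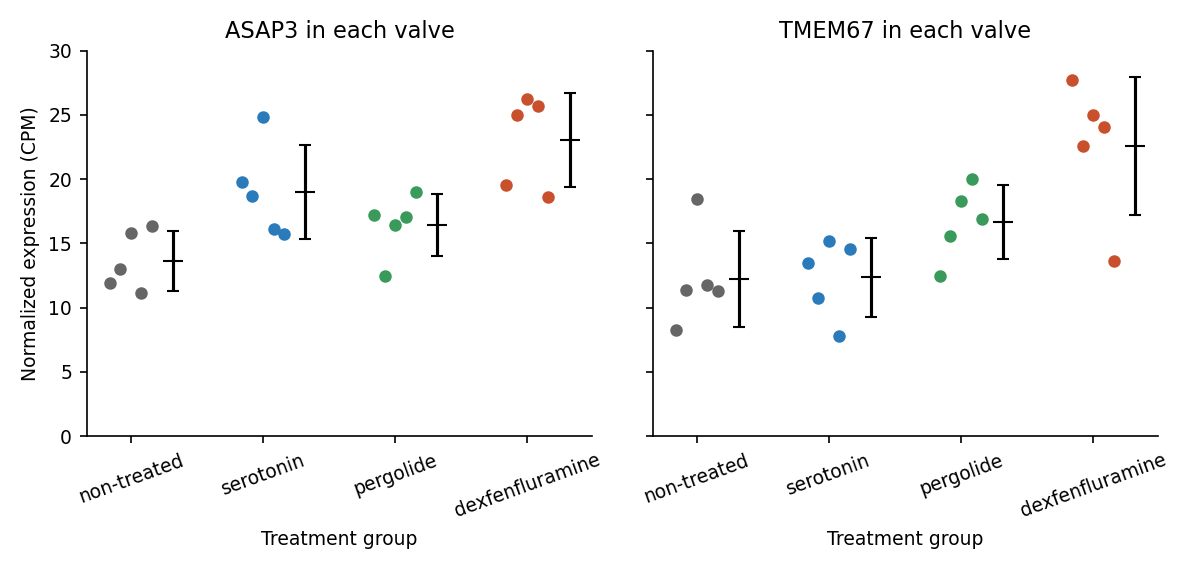
Normalized expression (CPM) of ASAP3 (left) and TMEM67 (right) in each of 20 tricuspid valves, 5 per treatment group; points are valves in order of replicate, and the bar beside them is the mean ± SD. ASAP3 is at 18.6 CPM or more in every dexfenfluramine valve, and TMEM67 is at 22.6 CPM or more in 4 of the 5.

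Mean ASAP3 expression was in the order non-treated (13.6 ± 2.31 CPM, SD, n = 5), pergolide (16.4 ± 2.42 CPM, SD, n = 5), serotonin (19.0 ± 3.67 CPM, SD, n = 5) and dexfenfluramine (23.0 ± 3.65 CPM, SD, n = 5). Mean TMEM67 expression was in the order non-treated (12.2 ± 3.74 CPM, SD, n = 5), serotonin (12.4 ± 3.08 CPM, SD, n = 5), pergolide (16.7 ± 2.89 CPM, SD, n = 5) and dexfenfluramine (22.6 ± 5.36 CPM, SD, n = 5). Dexfenfluramine was thus the highest group for ASAP3 and for TMEM67, and the serotonin mean of TMEM67 lay next to the non-treated one. In the choosing contrast, dexfenfluramine minus non-treated, the log2 fold change was 0.74 for ASAP3 and 0.85 for TMEM67. Among the 1175 genes called higher in this contrast (13.5% of the genes tested, with 15.4% called lower), these sizes stood at percentiles 70.0 and 77.7. A limma-voom fit was also made with 4 surrogate variables from svaseq, which estimate variation other than that of the groups. These variables can overlap with the groups and so take up part of a treatment difference, which was not tested. In that fit the same log2 fold changes were 0.45 and 0.32, and the call by which the genes were chosen was absent for ASAP3 and for TMEM67. With 1 valve left out in turn from the fit as reported, the log2 fold changes were 0.67 to 0.81 for ASAP3 and 0.74 to 1.06 for TMEM67.

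The direct comparison asked whether ASAP3 and TMEM67 were higher with dexfenfluramine than with pergolide. For ASAP3 the log2 fold change was 0.49 (standard error 0.15), a 1.40-fold higher level with a 95% confidence interval of 1.13 to 1.73-fold. The adjusted p was 0.58 by edgeR's quasi-likelihood test with Benjamini-Hochberg adjustment over the 8683 genes tested, so ASAP3 did not pass the threshold of 0.05. Without adjustment the p was 0.0036, rank 50 of all genes tested, and the exact two-sided permutation test of log2 CPM, 5 valves against 5, gave p = 0.016, where 0.0079 is the smallest it can give. For TMEM67 the log2 fold change was 0.44 (standard error 0.20), a 1.35-fold higher level with a 95% confidence interval of 1.01 to 1.82-fold. Its adjusted p was 0.70 by edgeR with Benjamini-Hochberg adjustment, and 4 of the 5 dexfenfluramine valves lay above all pergolide valves. Without adjustment the p was 0.045, rank 543 of all genes tested, and the exact permutation test gave p = 0.095. These p-values measure the spread between rabbits.

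No gene was called between dexfenfluramine and pergolide by edgeR (0% of the genes tested), and 613 genes (7.06%) had an unadjusted p under 0.05. DESeq2 called 4 genes, and edgeR with 1 RUVr factor, a further estimate of unexplained variation, called 127. Neither ASAP3 nor TMEM67 was among the called genes in any of the 12 other ways of processing, nor when each of the 10 valves compared was dropped in turn. Across these fits the log2 fold change of ASAP3 ran from 0.38 to 0.73 and its unadjusted p was under 0.05 in 22 of 22. For TMEM67 it ran from 0.27 to 0.68, and the unadjusted p was under 0.05 in 13 of 22. Both differences kept a positive sign throughout. The lowest adjusted p, with 1 RUVr factor, was 0.054 for ASAP3, by edgeR with Benjamini-Hochberg adjustment, and 0.25 for TMEM67.

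**Figure D2:**
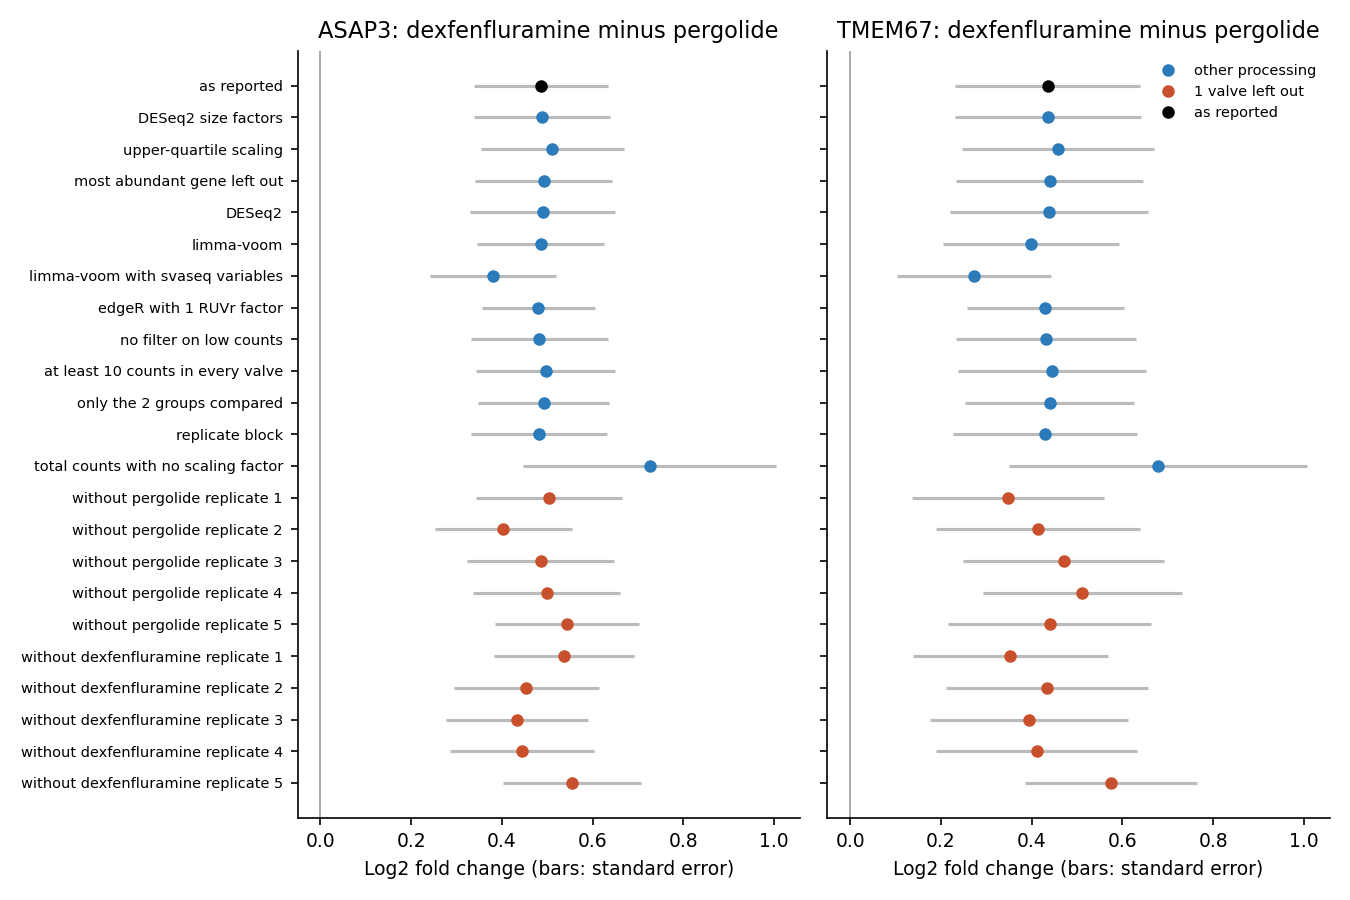
Log2 fold change of ASAP3 (left) and TMEM67 (right), dexfenfluramine minus pergolide, as reported, under 12 other ways of processing and with each valve left out; bars are standard errors. All values lie above 0, between 0.38 and 0.73 for ASAP3 and between 0.27 and 0.68 for TMEM67.

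The pergolide and serotonin comparisons below use the same non-treated valves as the choosing contrast. Genes chosen for low values in those valves tend to look higher in any other group. For ASAP3 the log2 fold change of pergolide minus non-treated was 0.25 (standard error 0.16, 95% confidence interval -0.07 to 0.58), with an adjusted p of 0.25 by edgeR with Benjamini-Hochberg adjustment. The exact permutation test gave p = 0.079, and 4 of 5 pergolide valves lay above all non-treated valves. For TMEM67 it was 0.41 (standard error 0.22, 95% confidence interval -0.04 to 0.87), with an adjusted p of 0.17 by edgeR with Benjamini-Hochberg adjustment. The exact permutation test gave p = 0.071. The TMEM67 value rested on non-treated replicate 3: without it the log2 fold change was 0.63 and passed the threshold (adjusted p = 0.036 by edgeR with Benjamini-Hochberg adjustment, against up to 0.36 with another valve left out and 0.074 to 0.92 under other processing). In the fit with svaseq variables the pergolide value was 0.07 for ASAP3 and 0.04 for TMEM67. The pergolide difference was 34.2% of the dexfenfluramine difference on the log2 scale for ASAP3 and 48.8% for TMEM67. Over the genes called higher with dexfenfluramine, the median of this share was 86.4%, and over the 394 of them not called with pergolide it was 60.8%. Choosing genes by a high dexfenfluramine difference favours a low share, for ASAP3, TMEM67 and the other called genes, so the shares are descriptions. With svaseq variables the dexfenfluramine difference was 0.45 for ASAP3 and 0.32 for TMEM67, beside the pergolide values above. With total counts and no scaling factor, the pergolide and dexfenfluramine differences were 0.68 and 1.41 for ASAP3 and 0.80 and 1.48 for TMEM67.

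For ASAP3 the log2 fold change of serotonin minus non-treated was 0.46 (standard error 0.16, 95% confidence interval 0.13 to 0.79), with an adjusted p of 0.16 by edgeR with Benjamini-Hochberg adjustment. The exact permutation test gave p = 0.040, and 3 of 5 serotonin valves exceeded the highest non-treated valve. With 1 RUVr factor the value was 0.47 and passed the threshold (adjusted p = 0.041 by edgeR with Benjamini-Hochberg adjustment), while under the other processing the adjusted p reached 0.66. For TMEM67 the log2 fold change was -0.01 (standard error 0.23, 95% confidence interval -0.49 to 0.46), with an adjusted p of 0.99 by edgeR with Benjamini-Hochberg adjustment. The mean TMEM67 level differed from this fitted value in sign, at 12.4 CPM with serotonin and 12.2 CPM in non-treated valves. The sign of the fitted value changed when serotonin replicates 2 or 4 or non-treated replicate 3 were left out. By the same test 103 genes (1.19%) were called for serotonin, a count that ran from 0 to 257 when 1 valve was left out.

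Pergolide and serotonin valves were also compared with each other, since neither group entered the choosing contrast. The comparison was added after the data were seen. For ASAP3 the log2 fold change of pergolide minus serotonin was -0.21 (standard error 0.15, 95% confidence interval -0.53 to 0.11), with an adjusted p of 0.33 by edgeR with Benjamini-Hochberg adjustment. It was -0.10 without serotonin replicate 3 and -0.13 without pergolide replicate 2, and changed sign to 0.11 with total counts and no scaling factor. For TMEM67 it was 0.43 (standard error 0.22, 95% confidence interval -0.03 to 0.88), with an adjusted p of 0.16 by edgeR with Benjamini-Hochberg adjustment, and 4 of 5 pergolide valves lay above all serotonin valves. No difference between neighbours in the order of levels below dexfenfluramine thus passed the threshold, for ASAP3 or for TMEM67. Dexfenfluramine and serotonin valves were compared as well, also added after the data were seen, and here the dexfenfluramine values again took part in choosing the genes. For ASAP3 the log2 fold change of dexfenfluramine minus serotonin was 0.28 (standard error 0.15, 95% confidence interval -0.04 to 0.59), with an adjusted p of 0.18 by edgeR with Benjamini-Hochberg adjustment and p = 0.13 by the exact permutation test. With svaseq variables it was 0.12, and with total counts and no scaling factor it was 0.84 and passed the threshold (adjusted p = 0.021 by edgeR with Benjamini-Hochberg adjustment). For TMEM67 it was 0.86 (standard error 0.22, 95% confidence interval 0.41 to 1.31) and passed the threshold, with an adjusted p of 0.0045 by edgeR with Benjamini-Hochberg adjustment and p = 0.024 by the exact permutation test. With svaseq variables the TMEM67 value was 0.54 and did not pass (adjusted p = 0.083 by limma-voom with Benjamini-Hochberg adjustment). In this comparison 2631 genes (30.3%) were called.

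**Figure D3:**
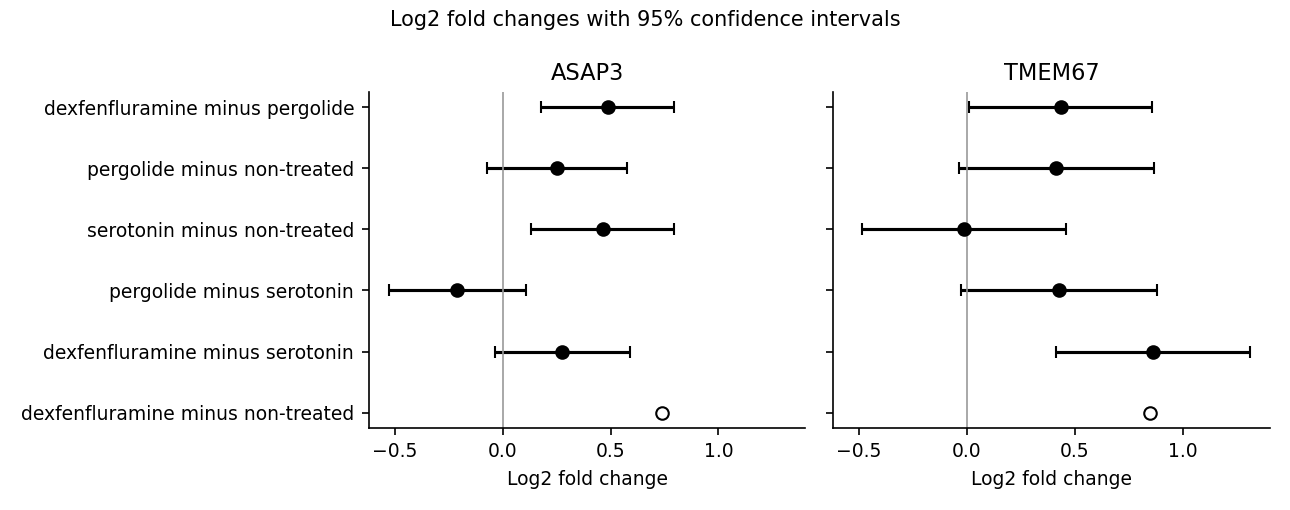
Log2 fold changes of ASAP3 (left) and TMEM67 (right) between treatment groups; filled points carry 95% confidence intervals, and the open point is the choosing contrast, shown without an interval. The interval of dexfenfluramine minus pergolide starts at 0.18 for ASAP3 and at 0.01 for TMEM67, before adjustment over genes.

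Among the 1175 genes called higher with dexfenfluramine, 820 had a higher value with dexfenfluramine than with pergolide, against 4289 of all 8683 genes tested. Genes called for high dexfenfluramine values tend to lie above pergolide by that choice. Of the 1175, 99 had an unadjusted p under 0.05 in the direct comparison, against 613 (7.06%) of all 8683 genes tested. ASAP3 and TMEM67 belonged to the 394 of these genes that were not called with pergolide, of which 72 had an unadjusted p under 0.05 and 0 an adjusted p under 0.05 by edgeR. In the edgeR fit as reported, 0 of all 8683 genes tested were called between the drugs, so the 0 of 394 follows from that. It shows nothing particular to genes called with one drug only. For the 392 other than ASAP3 and TMEM67 the alternatives were not examined.

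The ARF cycle around ASAP3 was read from lists of GTPase-activating proteins, GTPases and exchange factors. Symbols were at hand only for genes that the study itself listed as changed, so that 60 of the 186 genes in the lists for ASAP3 and TMEM67 had one and 59 were tested. Counts over lists are therefore high by construction: of all tested genes with a symbol, 31.7% were called higher and 34.4% lower with dexfenfluramine. With pergolide the shares were 28% and 28.6% of genes with a symbol, and 12.1% and 12.7% of all genes tested. Of the 57 list genes other than ASAP3 and TMEM67, 31 were called higher and 9 lower with dexfenfluramine, 22 and 12 with pergolide, and 0 with serotonin, where 13 had an unadjusted p under 0.05, against 18.5% of all genes with a symbol. In every alternative with a scaling factor, 13 of the 31 and 5 of the 9 stayed called with dexfenfluramine, and 13 of the 22 and 6 of the 12 with pergolide. Several genes named below lost their call in many of the alternatives. With dexfenfluramine AGFG1 was called in 7 of 22, SUFU in 8 of 22, TCTN3 in 13 of 22, IQSEC2 in 14 of 22, IQCB1 in 16 of 22, GLI2 in 16 of 21 and WNT5B in 16 of 20. With pergolide CC2D2A was called in 10 of 22, ARFGEF1 in 13 of 22, WNT5B in 13 of 21, WDR35 in 14 of 22 and WDPCP in 14 of 21. In the direct comparison of the drugs 0 of the 57 were called by edgeR and 7 had an unadjusted p under 0.05, against 10.3% of all genes with a symbol. Directions are relative to the bulk of genes. With total counts and no scaling factor the median of all genes is 0.70 for dexfenfluramine and 0.46 for pergolide, against 0.03 and 0.02 as reported, and with this shift, common to all genes, all 9 falls with dexfenfluramine and 8 of the 12 with pergolide change sign.

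Of 23 ARF GTPase-activating proteins 5 had a symbol and were tested, ASAP3 among them, and no other ASAP gene had one. With dexfenfluramine 4 were called higher, ASAP3 among them by its choice, and 3 with pergolide, ASAP3 not included. ARAP1 rose from 24.6 ± 5.24 CPM (SD, n = 5) by 0.96 with dexfenfluramine and 0.90 with pergolide on the log2 scale. ACAP2, which acts on ARF6 at the cell surface, rose by 0.45 and 0.40, and AGFG1 by 0.26 and 0.41. ARAP3 was the list member closest to ASAP3 in the direct comparison, with 0.47, and was chosen for mention after its values were seen. Its levels were 19.0 ± 5.22 CPM (SD, n = 5) in non-treated and 25.9 ± 3.89 CPM (SD, n = 5) in dexfenfluramine valves. It was not called as reported, and was called with dexfenfluramine in 2 of 22 alternatives. The GTPases ARF4 and ARF5 rose with both drugs, ARF4 by 0.51 and 0.39 and ARF5 by 1.17 and 0.98 with dexfenfluramine and pergolide. The ARF5 level was low, at 3.26 ± 1 CPM (SD, n = 5) in non-treated valves. The exchange factor IQSEC1 rose by 0.66 and 0.53, and ARFGEF1, which works at the Golgi, fell by 0.31 and by 0.24. Of 9 tested focal adhesion genes 4 were called higher and 2 lower with each drug. The adaptor BCAR1 fell by 0.52 with dexfenfluramine and by 0.63 with pergolide, whereas PARVA, which links integrins to actin, rose by 0.38 with both.

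TMEM67 is 1 of 4 genes of the MKS module of the transition zone that were tested, of 15 listed. TCTN3, a tectonic protein of the same module, rose from 5.00 ± 1.03 CPM (SD, n = 5) by 0.54 with dexfenfluramine and 0.62 with pergolide. CC2D2A, another member, fell by 0.33 and by 0.24. TMEM231 was at 9.24 ± 2.27 CPM (SD, n = 5) in non-treated and 7.79 ± 2.01 CPM (SD, n = 5) in dexfenfluramine valves and was not called. In pergolide valves it was at 6.34 ± 1.47 CPM (SD, n = 5), also not called as reported. Among 22 alternatives TMEM231 was called lower in 3 with pergolide and in 1 with dexfenfluramine, the fit with svaseq variables, at -0.60. Apart from TMEM67, which was called by its choice, TCTN3 was thus called higher and CC2D2A lower. Of all tested genes with a symbol 31.7% were called higher and 34.4% lower with dexfenfluramine, so calls in both directions are not particular to this module. Of the neighbouring genes of the transition zone and the inversin compartment, INVS rose by 0.46 with dexfenfluramine and 0.40 with pergolide, RPGR fell by 0.49 and by 0.62, and IQCB1 rose by 0.56 with dexfenfluramine and was not called with pergolide, at 0.37. Intraflagellar transport moves cargo along the cilium that TMEM67 guards. Of its 9 tested genes 6 were called higher and 1 lower with dexfenfluramine, and 4 and 2 with pergolide. IFT88 rose by 0.68 with dexfenfluramine and 0.54 with pergolide, WDR35 by 0.62 and 0.37, IFT20 by 0.63 and 0.85 and TTC21B by 0.54 with both. Of 7 basal body and Joubert genes 4 were called higher and 2 lower with dexfenfluramine, WDPCP among the former with 1.02, and 1 and 3 with pergolide. The BBSome, which carries membrane proteins out of the cilium, had BBS2 called higher with both drugs, by 0.48 and 0.50, of 2 tested.

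Signals that pass through the cilium were read from 5 hedgehog and 7 non-canonical WNT genes. Of the hedgehog genes 4 were called higher with dexfenfluramine and 1 with pergolide. The co-receptor CDON was called with both, by 0.72 and 0.45, and GLI2, BOC and SUFU with dexfenfluramine, by 0.90, 0.55 and 0.43. The GLI2 level was low, at 2.95 ± 0.58 CPM (SD, n = 5) in non-treated valves. With pergolide GLI2, BOC and SUFU stood at 0.70, 0.31 and 0.29 and were not called. Whether the count of called hedgehog genes differs between the drugs was not tested, and none of these genes was called in the direct comparison. Of the WNT genes 2 were called higher with dexfenfluramine, and 3 higher and 1 lower with pergolide. WNT11, at only 2.15 ± 0.35 CPM (SD, n = 5) in non-treated valves, rose by 1.00 and 1.05 with dexfenfluramine and pergolide. WNT5B, at only 1.51 ± 0.58 CPM (SD, n = 5) there, rose by 1.02 and 0.96. With serotonin WNT5B stood at 1.11 (unadjusted p = 0.0032 by edgeR) and was not called, so its higher value was not particular to the drugs. WNT5A, a ligand that TMEM67 is known to bind, fell by 0.45 with pergolide. As reported ROR2 was called with pergolide alone, by 0.71, and stood at 0.57 with dexfenfluramine. Among 21 alternatives it was called in 17 with pergolide and in 5 with dexfenfluramine, and its value between the drugs was -0.13. In the plot of the direct comparison, ASAP3 and TMEM67 lay near the upper end of these lists. The list genes above ASAP3, TTC30B and IQSEC2 at 0.54 and 0.50, were picked out after their values were seen.

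**Figure D4:**
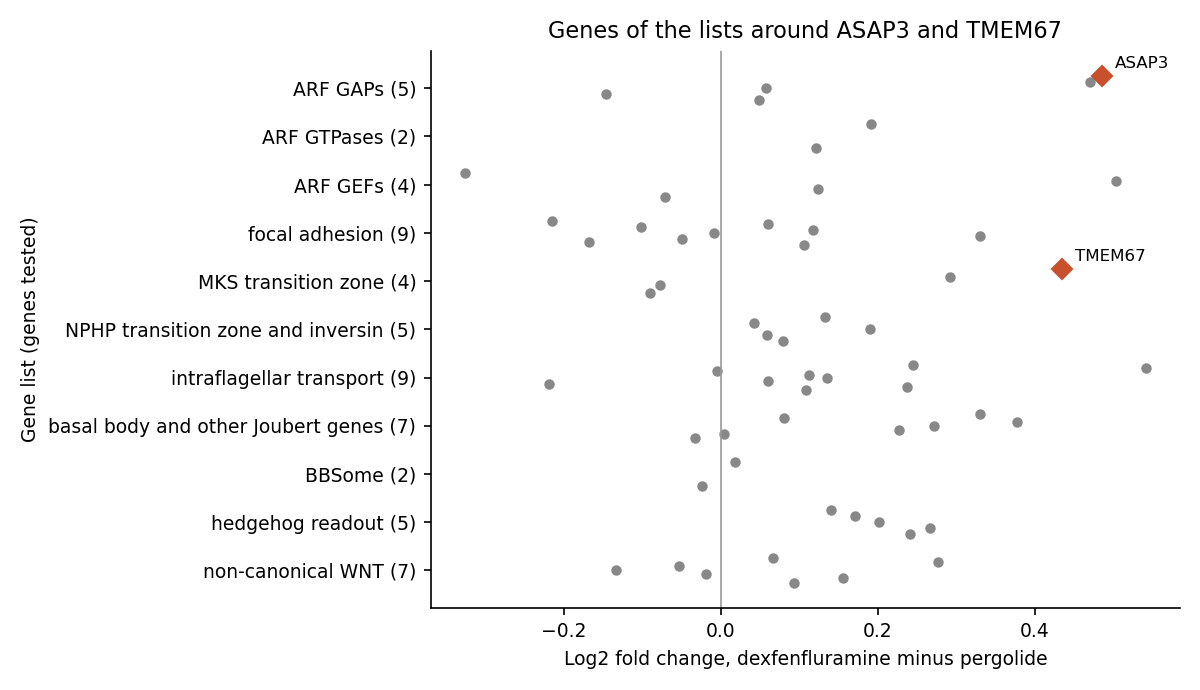
Log2 fold change between dexfenfluramine and pergolide for the 59 tested genes of 11 lists, a row per list with the number tested in parentheses; each point is a gene and diamonds mark ASAP3 and TMEM67. None of the genes was called at an adjusted p under 0.05 by edgeR, and 40 of the 57 other genes lie above 0, against 1612 of the 3451 tested genes with a symbol.

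Among the tested genes with a symbol and a mean log2 CPM of at least 1, those with levels most like ASAP3 over the 20 valves were NYNRIN (Pearson r = 0.83), PROS1 (0.82), STAG2 (0.79), PER1 (0.78) and EPHX1 (0.78). Taken as deviations from the group means, the same correlations were 0.68, 0.56, 0.60, 0.73 and 0.59. For TMEM67 they were WDR35 (Pearson r = 0.88), ICK (0.87), ARHGEF40 (0.86), PLCE1 (0.85) and EEF1A1 (0.85), with 0.73, 0.83, 0.70, 0.79 and 0.71 for the deviations. Of these, WDR35 stands in the intraflagellar transport list and ICK encodes a kinase known to act in cilia, while ARHGEF40, PLCE1 and EEF1A1 stand in none of the lists. Genes with a symbol are those the study listed as changed, which favours high correlations with a changed gene. ASAP3 and TMEM67 correlated with each other at r = 0.61 over the 20 valves and at 0.46 for the deviations. The valves share treatment groups, scaling and cell mixture, and the correlations are descriptions.

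In the RefSeq order of the rabbit assembly mOryCun1.1, a build other than that of the counts, ASAP3 lies between E2F2 and TCEA3 and TMEM67 between RBM12B and PDP1, and 0 annotated genes overlap either. These neighbours were looked up after the data were seen. TCEA3 next to ASAP3 fell by 0.80 with dexfenfluramine, from 10.4 ± 4.55 to 5.84 ± 1.92 CPM (SD, n = 5). RBM12B next to TMEM67 was at 35.05 ± 6.05 CPM (SD, n = 5) in non-treated and 32.5 ± 3.01 CPM (SD, n = 5) in dexfenfluramine valves and was not called. E2F2 and PDP1, on the other side of each gene, had no symbol and were not analysed here.

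Markers were read for 7 cell types, and none of the markers was called between the drugs as reported. Whether each of these cell types is present in the valves was not tested. MYH11, ACTC1, TTN, ACTN2 and PLN were each called lower with dexfenfluramine than with pergolide in 1 of 22 alternatives, the fit with 1 RUVr factor. The 7 markers of valvular interstitial cells with a symbol, of 9 listed, summed to 6205 ± 992 CPM (SD, n = 5) in non-treated valves, 6849.5 ± 705.5 CPM (SD, n = 5) after serotonin, 8286 ± 1405 CPM (SD, n = 5) after pergolide and 8892 ± 1182 CPM (SD, n = 5) after dexfenfluramine. VIM was the most abundant of them, 4 were called higher with dexfenfluramine and 5 with pergolide, and their median log2 fold change between the drugs was 0.02. The markers went both ways, with VIM 0.45 higher and LUM 0.58 lower with dexfenfluramine than with pergolide (unadjusted p = 0.032 and 0.0026 by edgeR), neither of them called. The 8 cardiomyocyte markers with a symbol, of 12 listed, summed to 108585 ± 40252 CPM (SD, n = 5) in non-treated valves, 75338 ± 23069 CPM (SD, n = 5) after serotonin, 73094 ± 21440 CPM (SD, n = 5) after pergolide and 53276 ± 24106 CPM (SD, n = 5) after dexfenfluramine, with TTN the most abundant. Of these 3 were called lower with dexfenfluramine and 1 with pergolide, and their median log2 fold change between the drugs was -0.48, where that of all genes tested was -0.003, with 0 of the 8 at an unadjusted p under 0.05. With svaseq variables TNNT2 kept its call with dexfenfluramine. MYH7 and PLN, which reached -0.02 and -0.27 across alternatives with a scaling factor, lost it. Across the same alternatives the highest value between the drugs ran from -0.24 for TNNT2 to 0.27 for MYBPC3, with TTN at -0.005. The mean of the cardiomyocyte sum was lowest in the dexfenfluramine group, where the means of ASAP3 and TMEM67 were highest. In replicates 1 to 5 the cardiomyocyte sum was 140973, 105761, 49156, 150408 and 96627 CPM in non-treated valves, 53127, 103610, 59933, 96671 and 63350 CPM after serotonin, 81782, 91605, 91873, 52418 and 47789.5 CPM after pergolide and 70662, 52339, 12432, 60207 and 70738 CPM after dexfenfluramine. The part of muscle RNA in the ASAP3 and TMEM67 differences was not tested.

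The 4 adipocyte markers with a symbol, of 9 listed and led by ADIPOQ, summed to 39.0 ± 21.1 CPM (SD, n = 5) in non-treated valves, 82.3 ± 42.6 CPM (SD, n = 5) after serotonin, 135.3 ± 55.2 CPM (SD, n = 5) after pergolide and 63.5 ± 44.4 CPM (SD, n = 5) after dexfenfluramine. All 4 were called higher with pergolide, ADIPOQ in 13 of 22 and LEP in 16 of 21 alternatives, and 0 with dexfenfluramine. With serotonin 0 were called and 3 had an unadjusted p under 0.05. Between the drugs their median log2 fold change was -1.21, with 3 of the 4 at an unadjusted p under 0.05 by edgeR. For endothelial cells PECAM1 alone of 7 markers had a symbol, at 211.8 ± 66.2 CPM (SD, n = 5) in non-treated, 127.4 ± 31.0 CPM (SD, n = 5) in pergolide and 169.7 ± 28.1 CPM (SD, n = 5) in dexfenfluramine valves, and it was called lower with pergolide. Of 6 smooth muscle or myofibroblast markers 3 had a symbol, led by DES, and summed to 428 ± 151 CPM (SD, n = 5), 414 ± 34.4 CPM (SD, n = 5) and 315 ± 132 CPM (SD, n = 5) in the same groups. With dexfenfluramine MYH11 was called lower, by 1.41, and TAGLN higher, by 1.36, from a low level of 2.1 ± 0.69 CPM (SD, n = 5) in non-treated valves. TAGLN was called higher with pergolide as well, by 0.99, in 7 of 21 alternatives too, and MYH11 stood at -0.55 there, not called. Of 8 macrophage markers 2 had a symbol, led by C1QA, and summed to 16.2 ± 7.30 CPM (SD, n = 5), 32.9 ± 12.5 CPM (SD, n = 5) and 28.7 ± 4.22 CPM (SD, n = 5), with C1QA called higher with pergolide. For cells with motile cilia, which also need TMEM67, CCDC39 alone of 8 markers had a symbol, at 11.2 ± 3.46 CPM (SD, n = 5) in non-treated, 6.87 ± 2.00 CPM (SD, n = 5) in pergolide and 10.0 ± 2.74 CPM (SD, n = 5) in dexfenfluramine valves. It was called lower with pergolide, in 8 of 22 alternatives too, and stood 0.54 higher with dexfenfluramine than with pergolide (unadjusted p = 0.043 by edgeR). CCDC39 alone does not show that cells with motile cilia were present. None of the markers with a symbol in the 7 lists was at 0 in all valves, and their part in the ASAP3 and TMEM67 differences was not tested.

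**Figure D5:**
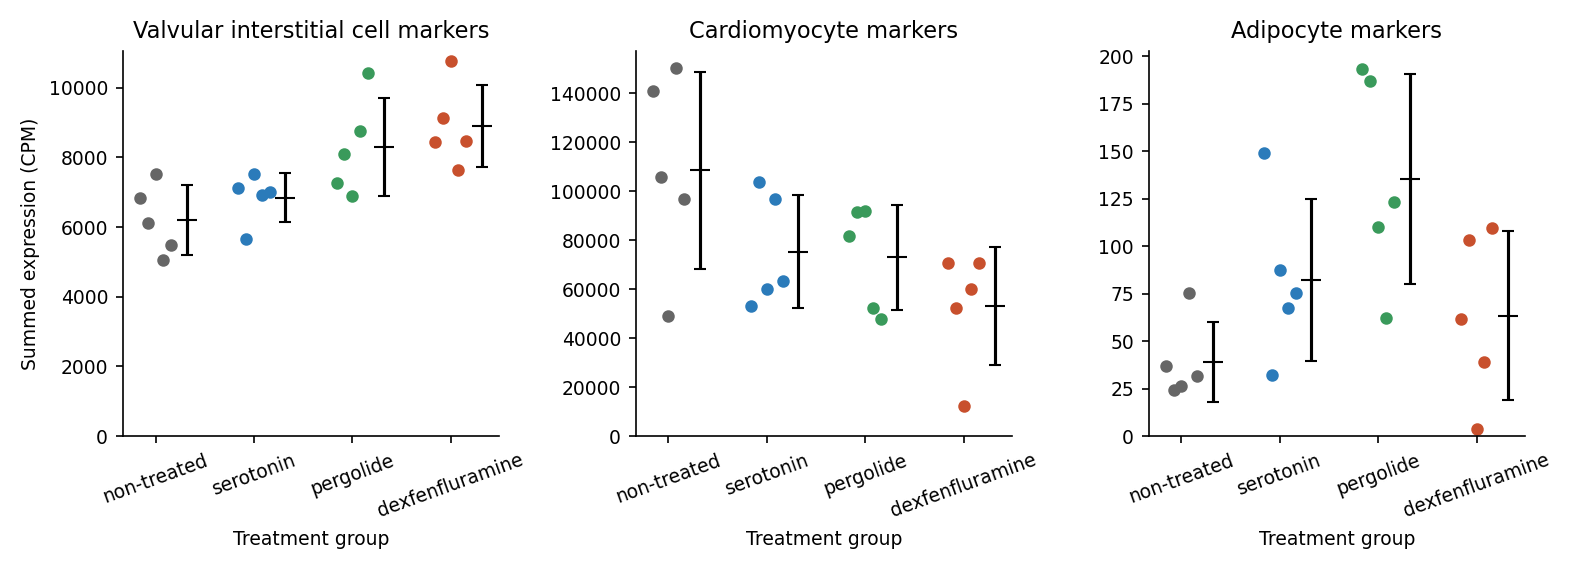
Summed expression (CPM) of valvular interstitial cell markers (left, 7 genes), cardiomyocyte markers (middle, 8 genes) and adipocyte markers (right, 4 genes) in each valve; points are valves in order of replicate, the bar is the mean ± SD, and each panel has its own axis from 0. The cardiomyocyte sum ran from 49156 to 150408 CPM in non-treated valves and from 12432 to 70738 CPM in dexfenfluramine valves.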

How the data were processed

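Total RNA of 20 tricuspid valves was sequenced from stranded libraries after depletion of ribosomal RNA. The authors trimmed the reads, aligned them to the rabbit genome oryCun2 with TopHat (2.1.1 in the submitters' processing notes) and counted them per Ensembl gene with HTSeq. The deposited values are whole counts, without normalization or filter. Which annotation release was used, whether strand was respected and how multi-mapping reads were treated is not given in the sources used here, so reads shared between related genes could not be examined.

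Columns were assigned to samples by name, and 0 columns were left unused. Genes were filtered by filterByExpr with the 4 groups, scaled by TMM and tested by the quasi-likelihood test of edgeR 4.0.16 (R 4.3.3) in a single fit of 20 valves, with Benjamini-Hochberg adjustment and a threshold of 0.05. No 2 valves of a group agreed within sampling noise. Exact two-sided permutation tests used log2 CPM with a prior count of 2. Alternatives used DESeq2 1.42.0, limma 3.58.1, sva 3.50.0 and an RUVr factor computed from edgeR residuals, and each valve was left out in turn. Scripts were tested on simulated data. Tables were made with Python 3.11.15.

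Symbols came from the study's list of changed genes: 3514 identifiers matched, 564 of them after a surplus zero was removed, and 273 did not. Genes were named by a rule: ASAP3 and TMEM67; of each list, the members called in a comparison, at most the 6 of smallest p with dexfenfluramine; every ASAP, ARF and MKS gene tested; and the 5 genes most alike to each member, with a mean log2 CPM of at least 1. The text gives a selection of these. A list gene that this rule would name is not reported here, and the counts over all lists include it. The members and lists were chosen with earlier results of these data known.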

Additional observations from a re-analysis of the deposited data

Results flagged for a closer look

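In groups of 5 valves, a value was looked at again where its gap to the nearest valve exceeded 0.71 of the range of the group. This was the case in 3 of 48 sets of 5 values, and chance gives about 1 in 20 sets. None of the 3 was an ASAP3 or TMEM67 level. Pergolide replicate 2, which has the lowest ASAP3 level of its group, had a total count of 5921025, against 4484239 to 4848510 in the other pergolide valves. Adipocyte markers summed to 75.6 CPM in non-treated replicate 4 and to 24.1 to 37.2 CPM in the other non-treated valves. Macrophage markers summed to 38.2 CPM in serotonin replicate 5 and to 12.4 to 19.3 CPM in the other serotonin valves.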

How the results depend on the processing

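The dexfenfluramine minus pergolide difference of ASAP3 and TMEM67 kept its sign and did not pass the threshold in any of 12 other ways of processing or 10 fits that left out a valve. Total counts without a scaling factor were chosen after seeing the data. They put dexfenfluramine minus non-treated at 1.41 for ASAP3 and 1.48 for TMEM67, where the median of all genes was 0.70 (0.03 as reported), and the count of called genes at 5101, of which 97.7% were higher (46.8% as reported). They also put 96.3% of the pergolide calls on the higher side (48.8% as reported), pergolide minus non-treated at 0.68 for ASAP3 and 0.80 for TMEM67, pergolide minus serotonin at 0.11, with the sign changed, and 0.72, dexfenfluramine minus serotonin at 0.84, past the threshold for ASAP3, and 1.40, and TMEM67 in serotonin minus non-treated at 0.078. With svaseq variables dexfenfluramine minus non-treated was 0.45 for ASAP3 and 0.32 for TMEM67, with 1508 genes called, ASAP3 and TMEM67 not among them, and dexfenfluramine minus serotonin was 0.12 for ASAP3 and 0.54 for TMEM67, no longer past the threshold for TMEM67. TMEM67 was then 0.27 in pergolide minus serotonin and -0.23 in serotonin minus non-treated. With 1 RUVr factor ASAP3 in serotonin minus non-treated was 0.47, past the threshold, TMEM67 there was 0.0039, and 127 genes were called between the drugs, against 4 with DESeq2. With a valve left out, ASAP3 ran from -0.28 to -0.10 in pergolide minus serotonin, and TMEM67 ran from 0.30 to 0.63 in pergolide minus non-treated, past the threshold at 0.63, and from -0.12 to 0.20 in serotonin minus non-treated. The count for serotonin ran from 0 to 257 with a valve left out. It was 53 with DESeq2 size factors, 37 without the most abundant gene, 234 with DESeq2, 238 with svaseq variables, 541 with 1 RUVr factor, 48 without a filter, 58 with at least 10 counts in every valve, 0 with only the 2 groups compared and 2 with total counts. Its higher share, 87.4% as reported, was 74.3% with upper-quartile scaling and 75.7% without the most abundant gene. Valves of the same number did not vary together (mean correlation -0.02, over 0.1 in 6 of 30 pairs), so the numbers were not taken as pairs. With the replicate block TMEM67 in serotonin minus non-treated was 0.017 and 1 gene was called for serotonin. The causes of these changes were not tested. Between 23 and 146 reads per valve limit the precision of both genes.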
